A study of Mus musculus with 8 samples.

Results

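DNA replication machinery genes were examined in lineage-negative CD127-positive mouse bone marrow cells, in 4 wild-type libraries (WT1 to WT4, genotype Trerf1 +/+) and 4 knockout libraries (KO1 to KO4, genotype labelled Tref1 -/-). The 40 genes were chosen by name, by their textbook part in copying DNA, from 53647 gene identifiers in the count files, and all 40 were among the 16352 genes tested. They comprise 4 origin licensing genes, 12 genes of the replicative helicase and its assembly, 8 genes of the polymerases and primase, 6 of the sliding clamp and its loader, 2 of Okazaki fragment maturation, 5 of deoxynucleotide (dNTP) supply, and 3 of chromatin assembly and maintenance methylation behind the fork. CD127 is the interleukin 7 receptor alpha chain, and its gene Il7r had a mean CPM (counts scaled to library size) of 324 ± 46.8 over the wild-type and 354 ± 45.8 over the knockout libraries (SD, n = 4 each). The labels give neither the age of the mice nor the exons that the allele lacks, and do not say whether the 4 libraries of a group come from separate animals, so that a p-value here measures spread between libraries, which may be technical.

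In G1 phase the origin recognition complex, Cdc6 and Cdt1 load the ring of Mcm2 to Mcm7 onto DNA. In S phase Cdc45 and the GINS complex join the ring to form the active helicase, polymerase alpha with primase lays down primers, and polymerases delta and epsilon extend them on the clamp Pcna. Most of these genes are targets of E2F transcription factors and are transcribed around the G1 to S transition. In bulk RNA their level therefore depends on how many cells are cycling as well as on the RNA per cell. A difference in the share of cells in S phase and a difference in RNA per cell, in either direction, cannot be told apart here.

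Promoters of the members were examined for the E2F sequence because it is the best known feature they share. RefSeq promoter windows (GRCm38.p6, 250 bases before to 50 after the start) were found for 33 of the 40 genes, in 39 windows. The letters searched were TTTGGCGC, TTTCCCGC, TTTCGCGC and TTTGCCGC on both strands. Of the 33 genes, 14 (42.4%) held a match, against 4.61% of the 10747 tested genes with a window and 2.6% of all 27025 genes with one. Counted by window, the share was 35.9% of the 39, against 2.27% of all 32851. The 14 were Orc1, Cdc6, Cdt1, Mcm3, Mcm5, Mcm6, Mcm7, Gins3, Pola1, Pold1, Pole2, Rfc3, Lig1 and Uhrf1. A CCAAT box (CCAAT on either strand) was found in 20 of the 33 (60.6%), against 42.2% of tested genes. Mcm4, Gins1, Gins2, Gins4, Prim2, Pole and Rfc2 had no entry in the table. Stretches before the start are shown, as examples, for 4 genes in which the match lies upstream of the start, with matched letters in capitals, for 2 helicase subunits, the polymerase alpha catalytic subunit and a chromatin factor. They read, 5′ to 3′ on the gene's strand:
Mcm5 (chr8:75109296-75109423, plus strand): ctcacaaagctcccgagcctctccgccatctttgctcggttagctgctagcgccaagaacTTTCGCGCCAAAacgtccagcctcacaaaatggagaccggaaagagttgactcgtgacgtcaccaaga
Mcm6 (chr1:128359748-128359875, minus strand): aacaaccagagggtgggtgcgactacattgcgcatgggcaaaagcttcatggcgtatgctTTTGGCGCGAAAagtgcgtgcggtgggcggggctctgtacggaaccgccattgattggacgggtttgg
Pola1 (chrX:93632226-93632353, minus strand): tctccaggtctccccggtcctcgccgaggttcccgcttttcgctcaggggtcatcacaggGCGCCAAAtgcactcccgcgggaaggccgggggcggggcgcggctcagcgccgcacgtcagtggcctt
Uhrf1 (chr17:56304068-56304195, plus strand): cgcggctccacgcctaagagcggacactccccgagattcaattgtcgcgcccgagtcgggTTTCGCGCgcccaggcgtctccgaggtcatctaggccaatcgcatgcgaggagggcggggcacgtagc
The first match began 153 bases before the start in Mcm5, 110 in Mcm6, 138 in Pola1 and 185 in Uhrf1, and Mcm6 had another 47 bases before its start. In Mcm5 and Mcm6 matches on the 2 strands overlap, so that 12 letters are in capitals. A match describes the letters and not a bound site. The 14 genes with a match had a median log2 fold change, knockout over wild type, of 0.04, and the 19 genes without one 0.08.

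Total counts ran from 31109744 to 73414626 per library, and each member had at least 546 counts in every library. Trerf1, the targeted gene, had 29.0, 32.1, 27.1 and 22.3 CPM from WT1 through WT4, and 13.4, 12.8, 12.1 and 22.1 CPM from KO1 through the library labelled KO4. The last of these lay at the level of WT4. Knockout over wild type was -0.87 ± 0.20 on the log2 scale (SE), at an unadjusted p of 0.00151 and an adjusted p of 0.999 by edgeR, and a two-sided exact permutation p of 0.0286, the smallest that 4 against 4 libraries allow. Every knockout direction below includes the library labelled KO4. Xist RNA was present in WT1, WT4, KO1, KO3 and KO4 and absent in WT2, WT3 and KO2. WT2, WT4 and KO4 were the 3 deepest libraries.

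Per transcript length, the members spanned 42.2-fold in wild type, from 11.3 ± 1.3 TPM (transcripts scaled by length and to a fixed total) for Orc1, the licensing ATPase, to 476 ± 38.2 TPM for Mcm6 (SD, n = 4). Their median was 147 TPM and 23 of the 40 lay above 100 TPM. After Mcm6 came Rfc2, a small clamp loader subunit, at 386 ± 36.2 TPM, the clamp Pcna at 382 ± 10.3 TPM, Mcm3 at 361 ± 20.4 TPM, and Rrm2, the regulated subunit of ribonucleotide reductase, at 324 ± 25.3 TPM. Rfc2 and Pcna did not differ beyond their spread, nor did Rrm2 and the next gene, Mcm7, at 322 ± 42.6 TPM. Mcm6 exceeded Rfc2 by more than the SD of either. At the low end Orc1 was followed by Chaf1a, the large subunit of the histone chaperone CAF-1, at 24.2 ± 7.19 TPM, Pole, the catalytic subunit of polymerase epsilon, at 26.4 ± 3.19 TPM, and its partner Pole2 at 30.2 ± 3.88 TPM. Chaf1a and Pole did not differ beyond their spread. Pole2 lay above Pole in every wild-type library, at 29.4, 31.6, 34.4 and 25.2 TPM against 26.8, 30.1, 26.4 and 22.3 TPM in WT1 to WT4.

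**Figure D1:**
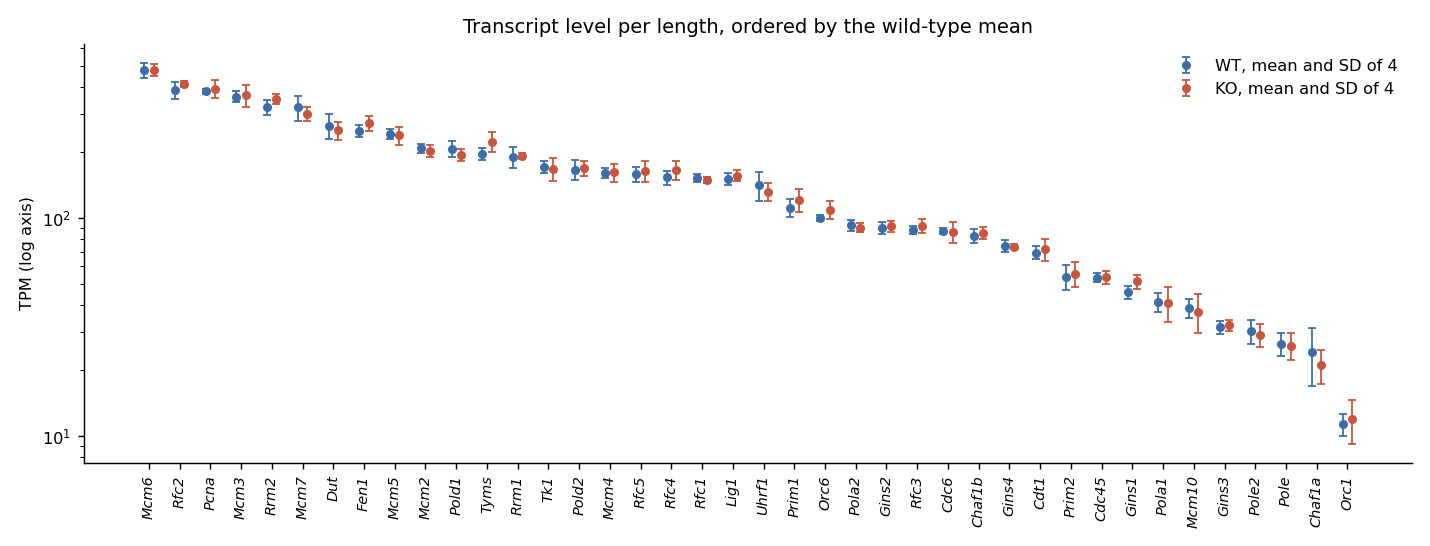
Mean TPM of each replication gene on a log axis, ordered by the wild-type mean, for wild type (blue) and knockout (red), with bars of 1 SD over 4 libraries. Mcm6 is highest at 476 TPM and Orc1 lowest at 11.3 TPM in wild type, and the 2 groups lie close together for each gene.

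Transcripts for the subunits of a complex were not equally abundant. Within the Mcm2 to Mcm7 ring, whose subunits are present once each, the most abundant transcript exceeded the least abundant by 2.95 ± 0.139 times in wild type and 2.96 ± 0.164 times in knockout, as a TPM ratio (SD, n = 4 each). Mcm6 was the highest and Mcm4, at 161 ± 7.98 TPM in wild type, the lowest. For the 4 GINS subunits the same ratio was 2.87 ± 0.237 and 2.85 ± 0.152, with Gins2 highest and Gins3 lowest. For the 5 clamp loader subunits it was 4.38 ± 0.507 and 4.50 ± 0.239, with Rfc2 highest and Rfc3 lowest. For polymerase alpha with primase it was 2.73 ± 0.332 and 2.99 ± 0.314, with Prim1 highest and Pola1 lowest. Rrm2 stood at 1.70 ± 0.131 times Rrm1, the large subunit of the reductase, in wild type and at 1.83 ± 0.119 times in knockout. The gap between these means was smaller than the wild-type SD and slightly larger than the knockout SD. The difference of these ratios between groups was not tested.

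No replication gene passed the test between knockout and wild type. With p-values of the edgeR quasi-likelihood fit adjusted by Benjamini and Hochberg's method over all 16352 genes, 0 of the 40 members were higher and 0 lower at an adjusted p under 0.05, and each adjusted p was 0.999. Over all genes tested the shares called were 0% higher and 0% lower. At an unadjusted p under 0.05, 0 of the 40 members were found, against 1.97% of all genes (322). DESeq2 and limma-voom also called 0 members and 0 genes in all, with 565 and 891 genes at an unadjusted p under 0.05. Of the 40, 33 had a higher and 7 a lower estimate in knockout, where 51.7% of all genes had a higher one. The median log2 fold change was 0.07 over the members and 0.01 over all genes, and single members ran from -0.19 to 0.23. The 95% confidence intervals of all 40 included 0, and those of 38 lay within -0.5 to 0.5 on the log2 scale, the exceptions being Fen1 and Chaf1a.

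**Figure D2:**
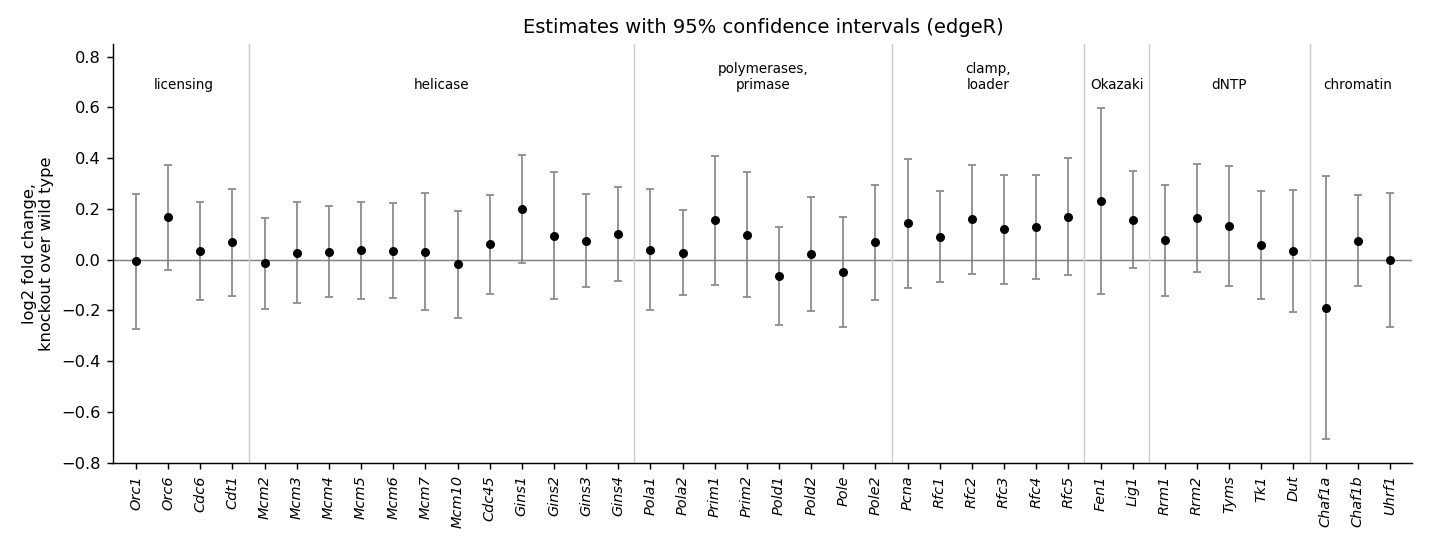
Log2 fold change of knockout over wild type for each replication gene, by function, with 95% confidence intervals from the fit over all genes. Every interval includes 0, and the widest belongs to Chaf1a, from -0.71 to 0.33.

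Of the 4 licensing genes, 3 had higher estimates and none passed (median log2 fold change 0.05, which was 0.02 without WT1, 0.10 without KO1 and 0.01 without KO2). Orc6, the smallest subunit of the origin recognition complex (chromosome 8, 86026261 to 86034907, plus strand, GRCm39), was at 90.4, 88.4, 90.1 and 103 CPM in WT1 to WT4 and at 91.1, 110, 110 and 106 CPM in KO1 to KO4. KO2, KO3 and KO4 were above every wild-type library and KO1 was not, and the log2 fold change was 0.17 ± 0.09 (SE; edgeR, adjusted p 0.999). Cdc6, the loading ATPase and the most abundant of the 4 by CPM (chromosome 11, 98798627 to 98814766, plus strand), was at 181, 174, 182 and 194 CPM in wild type. It was at 165, 188, 203 and 193 CPM in knockout, a range that contains all 4 wild-type values. Cdt1, which Cdc6 works with to load the ring, had means of 115 ± 6.28 and 120 ± 13.2 CPM, and Orc1 18.6 ± 1.02 and 18.5 ± 1.78 CPM, in wild type and knockout (SD, n = 4 each).

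The 6 genes of the Mcm2 to Mcm7 ring differed little between the groups, with log2 fold changes from -0.01 to 0.04. Over all 12 helicase genes, 10 had higher estimates and none passed, and the median of 0.04 was 0.02 without WT1, 0.05 without WT2, 0.075 without KO1 and 0.01 without KO2. Mcm2 (chromosome 6, 88860456 to 88875762, minus strand) was at 569, 529, 506 and 540 CPM in WT1 to WT4 and at 502, 556, 532 and 533 CPM in KO1 to KO4. Mcm3 (chromosome 1, 20873192 to 20890536, minus strand) was at 643, 686, 646 and 646 CPM, and at 598, 744, 667 and 663 CPM in knockout. Mcm4 (chromosome 16, 15441761 to 15455264, minus strand) was at 429, 450, 416 and 445 CPM, and at 409, 451, 460 and 460 CPM in knockout. For each of these 3 the groups overlapped, and the lowest of all 8 libraries was KO1.
Mcm5 (chromosome 8, 75836197 to 75855067, plus strand) was at 475, 503, 473 and 475 CPM in WT1 to WT4 and at 449, 546, 500 and 483 CPM in KO1 to KO4. Mcm6 (chromosome 1, 128259327 to 128287401, minus strand) was at 1013, 1106, 1045 and 1002 CPM, and at 998, 1143, 1075 and 1051 CPM in knockout. Mcm7 (chromosome 5, 138162845 to 138170684, minus strand) was at 471, 554, 479 and 472 CPM, and at 444, 579, 486 and 510 CPM in knockout. In all 3 the lowest library was KO1 and the highest KO2, both knockout. Two-sided exact permutation tests over the 70 assignments of libraries gave p from 0.514 (Mcm4 and Mcm6) to 0.714 (Mcm2, Mcm3 and Mcm7), where the smallest possible is 0.0286.

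The other helicase genes activate or assemble the ring. Gins1, a GINS subunit (chromosome 2, 150747320 to 150773200, plus strand), was at 35.5, 37.1, 36.3 and 36.0 CPM in WT1 to WT4 and at 37.1, 43.3, 45.4 and 40.6 CPM in KO1 to KO4. It was the 1 member of 40 whose knockout libraries all lay above all wild-type libraries, by a gap of under 0.1 CPM between KO1 and WT2, where 0.74% of all genes tested did so and 0.544% lay all below. Its log2 fold change was 0.20 ± 0.10 (SE), with an unadjusted p of 0.0622 and an adjusted p of 0.999 by edgeR. Gins4 (chromosome 8, 23716632 to 23727675, minus strand) was at 71.4, 69.8, 78.5 and 74.8 CPM in wild type and at 77.9, 82.1, 83.1 and 72.8 CPM in knockout, with overlapping groups. Its log2 fold change was 0.10 ± 0.08 by read counts and 0.02 by the deposited RSEM expected counts. Gins2 and Gins3 had means of 57.2 ± 5.91 and 53.8 ± 2.09 CPM in wild type and of 61.0 ± 6.96 and 56.6 ± 2.67 CPM in knockout. Cdc45, which joins the ring together with GINS, was at 80.6 ± 4.6 and 84.1 ± 6.28 CPM. Mcm10, an activator of the assembled helicase, was at 83.8 ± 2.6 and 82.7 ± 9.10 CPM.

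Of the 8 polymerase and primase genes, 6 had higher estimates, and none passed (median log2 fold change 0.03, which was 0.01 without WT1 and 0.08 without KO1). Prim1, the catalytic primase subunit (chromosome 10, 127851037 to 127865906, plus strand), was at 126, 135, 153 and 141 CPM in WT1 to WT4 and at 123, 164, 174 and 157 CPM in KO1 to KO4. KO1 was the lowest of the 8 libraries and the other 3 knockout libraries the highest, with a log2 fold change of 0.15 ± 0.12 (SE; edgeR, adjusted p 0.999). It was 0.10 without WT1, 0.24 without KO1 and 0.09 without KO3. Prim2, the large primase subunit (chromosome 1, 33492891 to 33708876, minus strand), was at 87.3, 85.8, 86.9 and 67.6 CPM in wild type and at 77.0, 95.9, 84.6 and 93.0 CPM in knockout. Its log2 fold change of 0.10 ± 0.11 was 0.02 without WT4, the low library, 0.15 without KO1 and 0.05 without KO2, and turned to -0.01 with WT4 and KO4 left out. Pold1, the catalytic subunit of polymerase delta and the most abundant of the 8 by CPM (chromosome 7, 44182170 to 44198273, minus strand), was at 396, 400, 351 and 355 CPM in wild type and at 350, 389, 356 and 339 CPM in knockout, again with overlapping groups. Its partner Pold2 had means of 173 ± 21.2 and 176 ± 9.94 CPM, the polymerase alpha subunits Pola1 and Pola2 165 ± 12.8 and 157 ± 3.42 CPM in wild type and 169 ± 21.8 and 160 ± 8.41 CPM in knockout. Pole and Pole2 were at 81.1 ± 8.81 and 31.8 ± 2.24 CPM in wild type and at 78.4 ± 4.72 and 33.4 ± 2.39 CPM in knockout.

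All 6 clamp and clamp loader genes had higher estimates in knockout and none passed (median log2 fold change 0.14, range 0.09 to 0.17). The median was 0.10 without WT2 and 0.19 without KO1. Pcna, the clamp (chromosome 2, 132091082 to 132095234, minus strand), was at 258, 257, 275 and 306 CPM in WT1 to WT4 and at 245, 315, 307 and 345 CPM in KO1 to KO4. The lowest and the highest library were both knockout, the log2 fold change was 0.14 ± 0.12 (SE; edgeR, adjusted p 0.999) and its 95% confidence interval ran from -0.11 to 0.40. The log2 value was 0.08 without the library labelled KO4, whose Trerf1 was at the level of WT4, the lowest wild-type library, and 0.23 without KO1. The two-sided exact permutation p was 0.314. Rfc2 (chromosome 5, 134610220 to 134630659, plus strand) was at 325, 299, 368 and 358 CPM in wild type and at 343, 412, 384 and 371 CPM in knockout, where KO2, KO3 and KO4 lay above every wild-type library, with a log2 fold change of 0.16 ± 0.10 that was 0.10 without WT2. Rfc1, the large subunit, had means of 213 ± 11.7 and 227 ± 10.6 CPM in wild type and knockout, Rfc3 76.1 ± 5.97 and 82.7 ± 7.30 CPM, Rfc4 119 ± 4.76 and 130 ± 13.6 CPM, and Rfc5 235 ± 20.2 and 264 ± 29.2 CPM.

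Of the Okazaki fragment pair, Lig1, the ligase that seals the fragments (chromosome 7, 13011239 to 13045350, plus strand), was at 210, 224, 228 and 236 CPM in WT1 to WT4 and at 224, 267, 263 and 247 CPM in KO1 to KO4. KO2, KO3 and KO4 were above every wild-type library and KO1 lay among them, with a log2 fold change of 0.16 ± 0.09 (SE; edgeR, adjusted p 0.999). Fen1, the flap nuclease that trims them (chromosome 19, 10176496 to 10181533, minus strand), had 24.4, 20.4, 27.3 and 31.4 CPM from WT1 through WT4 and 22.8, 31.7, 32.6 and 34.3 CPM from KO1 through KO4 by read counts, with overlapping groups. By the deposited RSEM expected counts its means were 364 ± 35.4 and 403 ± 31.9 CPM, and it was the eighth member by TPM in wild type, at 251 ± 16.5.

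Fen1 was also the member whose exons overlap other genes most. Of the 2422 exonic bases of Fen1 in the count files, 84.2% are shared with exons of other genes, 1909 of them with Gm10143, and reads that overlap 2 genes are left out by the counting program under its defaults, whereas RSEM divides them. The ratio of a gene's share of read counts to its share of expected counts was 0.074 for Fen1. It was 0.642 for Chaf1a, which shares 52.5% of its exonic bases, all with Ubxn6, and 0.819 for Gins2, which shares 67.3%, all with Gse1. It was also under 1 for Rfc2 (0.819, with 15.1% shared) and Pcna (0.805, with 0% shared), and between 1.02 and 1.22 for the other 35 members. Pcna has a processed copy, Pcna-ps2, with 700 counts over the 8 libraries against 108100 for Pcna, and reads that map to several places are also left out under the defaults. The part of such copies was not tested. The log2 fold change of Fen1 was 0.23 ± 0.17 by read counts, and 0.12 without WT2, its lowest library, and 0.34 without WT4. It was 0.15 ± 0.10 by expected counts, and that of Pcna was 0.08 ± 0.09 by expected counts (SE). Fen1, Chaf1a and the other members with low ratios were named here after their values were seen.

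**Figure D3:**
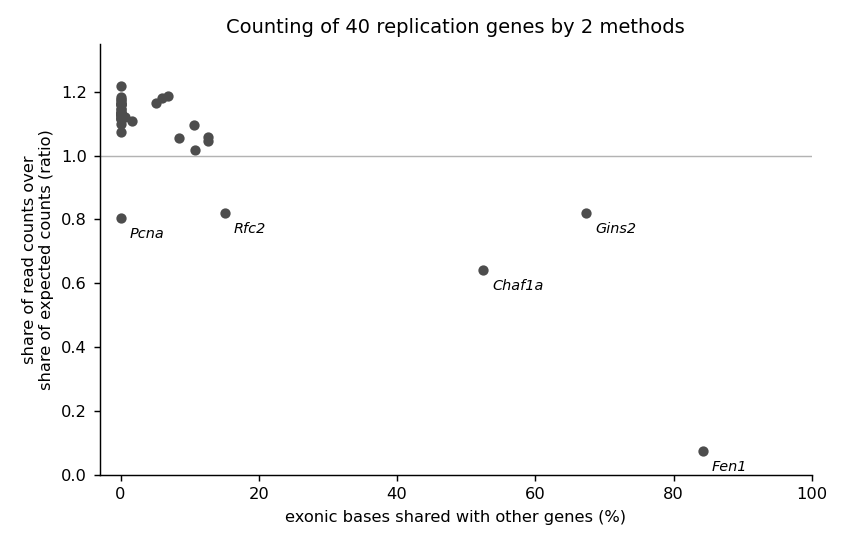
For each of the 40 replication genes, the percentage of its exonic bases shared with other genes (strand ignored) against the ratio of its share of read counts to its share of RSEM expected counts. Fen1 lies at 84.2% and a ratio of 0.074, apart from the other members, and 35 members lie above a ratio of 1.

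All 5 dNTP supply genes had higher estimates and none passed (median log2 fold change 0.08, which was 0.10 without KO1 and 0.05 without KO2). Rrm1 (chromosome 7, 102090902 to 102118978, plus strand) was at 567, 556, 498 and 458 CPM in WT1 to WT4 and at 545, 574, 579 and 495 CPM in KO1 to KO4. Rrm2 (chromosome 12, 24758240 to 24764145, plus strand) was at 575, 503, 501 and 515 CPM in wild type and at 560, 626, 641 and 521 CPM in knockout. In Rrm2 only KO2 and KO3 lay above every wild-type library, and WT1 was above KO1 and KO4. The log2 fold change of Rrm2 was 0.17 ± 0.10 (SE; edgeR, adjusted p 0.999), and the two-sided exact permutation p was 0.114 for Rrm2 and 0.400 for Rrm1. Tyms, which makes thymidylate from deoxyuridylate, had means of 162 ± 13.8 and 178 ± 21.1 CPM in wild type and knockout. Tk1, the thymidine salvage kinase, was at 151 ± 9.55 and 157 ± 17.1 CPM, and Dut, which removes dUTP, at 208 ± 19.9 and 213 ± 25.8 CPM.

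Of the 3 chromatin genes, 1 had a higher estimate and none passed. Chaf1b, a subunit of the histone chaperone CAF-1 (chromosome 16, 93680789 to 93703003, plus strand), was at 116, 115, 124 and 109 CPM in WT1 to WT4 and at 114, 129, 124 and 122 CPM in KO1 to KO4, with a log2 fold change of 0.08 ± 0.08 (SE; edgeR, adjusted p 0.999) that was 0.05 without WT4 or without KO2. Uhrf1, which recognises hemimethylated DNA and is the most abundant of the 3 by CPM (chromosome 17, 56610321 to 56630486, plus strand), was at 332, 385, 332 and 291 CPM in wild type and at 288, 393, 344 and 315 CPM in knockout, with means of 335 ± 38.4 and 335 ± 44.8 CPM. Chaf1a, the large CAF-1 subunit, varied most of all members. It was at 50.7, 89.8, 58.4 and 46.7 CPM in WT1 to WT4 and at 64.7, 57.4, 59.5 and 34.05 CPM in KO1 to KO4, with WT2 high and KO4 low. Its log2 fold change was -0.19 ± 0.23 by read counts and -0.15 ± 0.18 by expected counts, and without WT2 it was 0.04.

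The spread between libraries was below the median of all genes in 39 of the 40 members. The coefficient of variation of CPM over the 8 libraries had a median of 8.55% over the 40 members and ran from 3.89% (Pola2) to 27.9% (Chaf1a). It had a median of 18.9% over all genes tested and of 11.3% over the 7676 genes whose mean CPM lies in the range of the members (18.6 to 1054 CPM). Chaf1a lay above the former, and Chaf1a, Fen1, Prim1, Pcna and Uhrf1 above the latter. These are descriptions with no test. The genes were summed as well, and together they took 0.869% to 1.02% of all counts of a library, with means of 0.932 ± 0.0478% in wild type and 0.951 ± 0.0631% in knockout (SD, n = 4 each). The lowest and the highest share were those of KO1 and KO2.

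**Figure D4:**
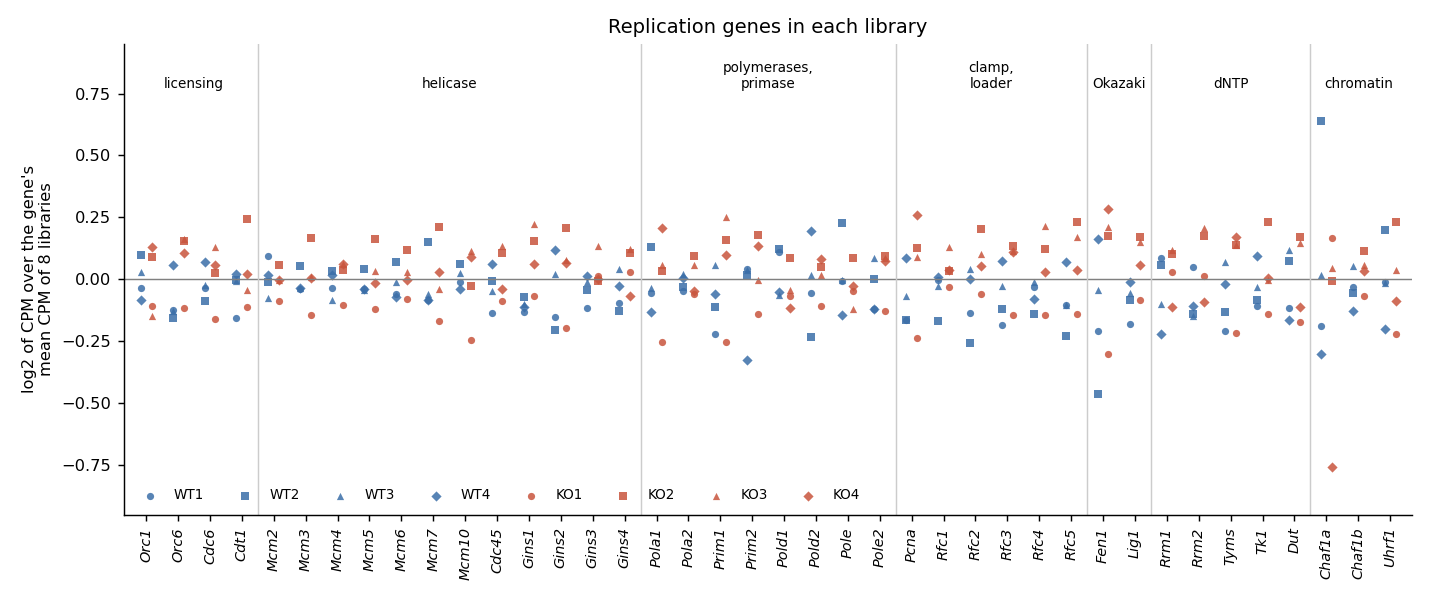
Log2 of the CPM of each replication gene over its mean in the 8 libraries, by function, with wild-type libraries in blue and knockout libraries in red and 1 marker shape per replicate number. KO1 (red circles) is lowest in 18 of the 40 genes and KO2 (red squares) highest in 17.

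The widest gap lay within the knockout group. The median over the 40 members of log2 CPM relative to each gene's mean over the libraries was -0.07, -0.04, -0.01 and -0.03 from WT1 through WT4, and -0.11, 0.13, 0.10 and 0.04 from KO1 through KO4. By this median KO1 was thus below all wild-type libraries and KO2, KO3 and KO4 above them, and the SD was 0.02 in wild type and 0.10 in knockout. KO2 exceeded KO1 in 38 of 40 members, by a median of 0.24 on the log2 scale, where the group means were -0.04 and 0.04. KO1 was lowest of the 8 libraries in 18 members, and KO2 and KO3 were highest in 17 and 12. Without KO1, 37 members had higher estimates, and the median log2 fold change was 0.10. Without KO2 it was 25 members and 0.04, and without WT1 33 members and 0.03. Leaving out the library labelled KO4 gave 32 members and 0.07.

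No other gene of the pathway passed the test. Of 39 other replication genes, among them the remaining origin recognition subunits, the single-strand binding RPA complex, and the firing kinase genes Cdc7 and Dbf4, 0 passed, 25 had higher and 14 lower estimates, and the median log2 fold change was 0.03. Rpa2, an RPA subunit, had wild-type and knockout means of 190 ± 7.24 and 209 ± 14.5 CPM, and Ticrr, an origin firing factor, at 51.5 ± 5.36 and 46.0 ± 4.74 CPM. Of 13 E2F and pocket protein genes, which code for the regulators of the members, 0 passed, 1 had a higher and 12 a lower estimate (median -0.09, from -0.18 to 0.10). E2f4 was at 28.3 ± 1.70 and 25.3 ± 1.84 CPM and E2f3 at 35.7 ± 3.49 and 33.2 ± 2.54 CPM. Of 30 G2 and M phase genes, 0 passed and 29 had higher estimates (median 0.15), with the mitotic cyclin gene Ccnb1 at 146 ± 18.5 and 176 ± 31.02 CPM. The G2 and M list varied more between libraries than the replication genes: its relative median was -0.01, 0.08, -0.09 and -0.27 from WT1 through WT4, and -0.002, 0.34, 0.17 and -0.24 from KO1 through KO4. KO2 was highest in both lists, whereas WT4 and KO4 were lowest in the G2 and M list and not among the replication genes.

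**Figure D5:**
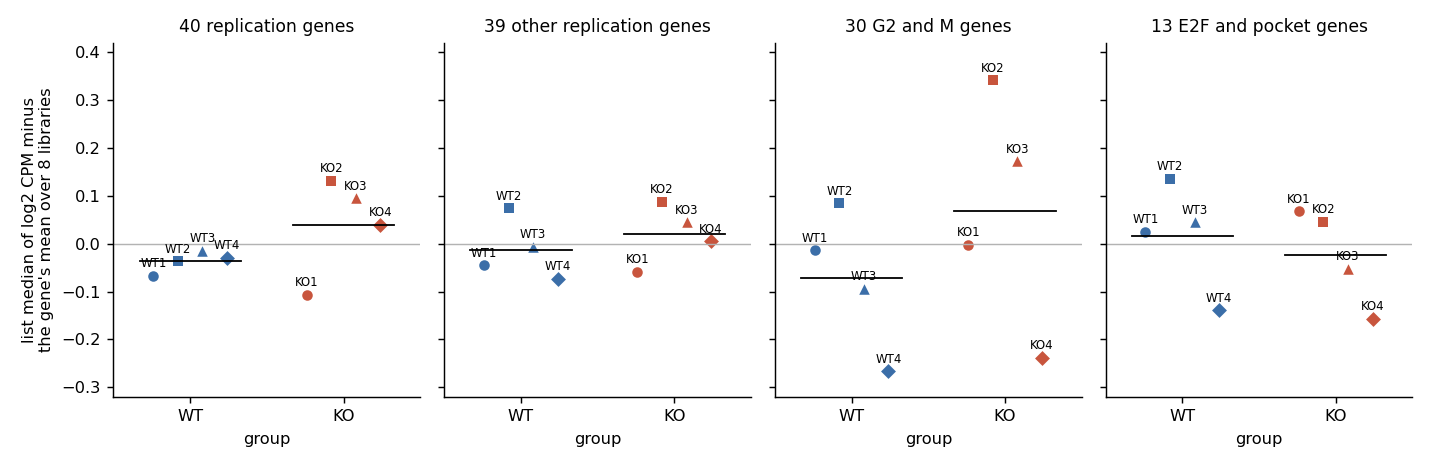
Median over 4 gene lists of log2 CPM minus each gene's mean over the 8 libraries, 1 point per library, with black lines at the group means. In the first panel KO1 lies at -0.11, under every wild-type library, and KO2 at 0.13, above them, and in the G2 and M panel the points spread from -0.27 to 0.34.

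Marker genes of other blood cells also differed between libraries. T, pro-B, erythroid and monocytic cells are among those that a lineage depletion is generally meant to remove, and the labels do not name the antibodies used. Summed CPM of 8 lymphoid progenitor markers ran from 6386 to 7999 in wild type and from 6444 to 10060 in knockout, with 10060 in KO2, whose replication genes were highest by relative median. Most of the sum came from Ly6d and Dntt, at 4905 and 3025 CPM in KO2 and 3877 and 2355 CPM in WT3. The lymphoid sum and the replication genes did not go together in every library. KO4 had a sum of 6444, with its replication genes above every wild-type library by relative median. WT3 had 7999 with a relative median of -0.01. By relative median of the lymphoid markers themselves, KO2 was highest at 0.40 and KO4 lowest at -0.25, and WT3 was at 0.23. By share of all counts, the replication genes of KO4 (0.946%) lay below those of WT2 (0.977%) and WT3 (0.963%). Summed CPM of 9 erythroid markers ran from 48.2 to 607 in wild type and from 42.2 to 246 in knockout. It was 607 in WT1 and 246 in KO1, the lowest library of each group by relative median of the replication genes. By share of all counts the lowest wild-type library was WT4 (0.873%, against 0.914% in WT1), where the erythroid sum was 48.2. That of 9 pro-B cell markers was 648 to 876 and 755 to 954, of 8 T cell markers 198 to 301 and 183 to 408, of 8 granulocyte-monocyte progenitor and monocyte markers 506 to 570 and 498 to 714, of 7 plasmacytoid dendritic cell markers 3371 to 6181 and 3659 to 4803, of 8 group 2 innate lymphoid cell markers 301 to 640 and 211 to 434, and of 8 stem cell and multipotent progenitor markers 425 to 616 and 487 to 657. The highest T cell sum, 408 in KO1, included 281 CPM of Cd4. By relative median of the T cell markers KO3 and KO4 were highest, at 0.37 and 0.32, and KO1 was at -0.07. All 9 erythroid markers had lower and all 8 granulocyte-monocyte markers higher estimates in knockout. No marker of these lists was at 0 in all libraries and 0 passed the test. The part of these cell types in the levels of the replication genes was not tested.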

How the data were processed

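Per the file headers, the authors deposited whole-number read counts per gene from featureCounts 1.6.4, run with an annotation named GRCm39 and otherwise default options, which count both strands together. They also deposited RSEM expected counts, which are estimates and were rounded here, and TPM, which divides by effective length. STAR 2.6.0a, Picard 2.19, RSEM 1.3.1 and build mm10 are named in the submitters' processing notes, and gene coordinates follow the count files, read as GRCm39. Of 53647 identifiers 52093 matched a symbol. Counts exceeded expected counts 3.67 to 4.00 times in total, and the cause was not tested.

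Genes kept by filterByExpr entered an edgeR 4.0.16 fit under R 4.3.3 (TMM, quasi-likelihood F test, no covariate, adjusted p threshold 0.05), with limma 3.58.1 and DESeq2 1.42.0 as alternatives. CPM is TMM-scaled, and log2 CPM used a prior count of 3. Standard errors are the fold change over the square root of F. Steps were tested on simulated counts of 4 against 4 libraries, with the changed genes drawn from all genes tested. The fit called 52% of genes changed by 1 on the log2 scale and 9.47% of those changed by 0.5. In the real data the median SE was 0.195 over all genes and 0.097 over the members. Intervals cover the spread between libraries. The members, lists and alternatives were chosen with earlier results of these data known. Values in every library are given for the highest member and the members with the smallest p of each functional group, and for Mcm2 to Mcm7, Pcna, Rrm1 and Rrm2, and fold changes for the smallest p, Pcna and Rrm2. Other pathway genes are those with the smallest p of their list.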

Additional observations from a re-analysis of the deposited data

Results flagged for a closer look

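In groups of 4 libraries, a library was taken as far from the others where its gap to the nearest exceeded the share of the group's range set by Dixon's 95% critical value for 4 samples. Chance flags about 1 in 20 groups, and among all genes tested 1933 of 32704 gene and group combinations (5.91%) met it. Among the replication genes 9 of 80 did (11.2%), of which WT2 and KO1 gave 3 each. These genes shift together within a library, so the 80 are not independent and no excess over chance is shown. WT2 was high for 3 helicase genes, Mcm3 at 686 CPM (others 643 to 646), Mcm5 at 503 CPM (others 473 to 475) and Mcm7 at 554 CPM (others 471 to 479). WT4 was high for Orc6 at 103 CPM (others 88.4 to 90.4) and low for Prim2 at 67.6 CPM (others 85.8 to 87.3). KO1 was low for Pole2 at 29.8 CPM (others 34.3 to 34.8), Rfc3 at 71.8 CPM (others 85.8 to 87.3) and Tyms at 147 CPM (others 187 to 191). KO3 was high for Gins3 at 60.6 CPM (others 54.9 to 55.7). Trerf1 in the library labelled KO4, at 22.1 CPM, was also far from the other knockout libraries (12.1 to 13.4 CPM).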

How the results depend on the processing

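In the 20 alternatives, 0 replication genes passed, with a smallest adjusted p of 0.585, and 20 of the 40 had the sign of their estimate in every setting. The number with higher estimates ran from 25 to 37 and the median log2 fold change from 0.03 to 0.10, both extremes coming from leaving out 1 library. With library size alone it was 28 genes and 0.04, with RLE factors 33 and 0.06, with RSEM expected counts 32 and 0.05, with Xist as covariate 35 and 0.08, and in the 5 shallower libraries 33 and 0.09. All genes moved as well with library size alone: their median was -0.02 and 44.8% had a higher estimate, against 0.01 and 51.7% with TMM. With WT4 and KO4 left out, 12 genes of all genes passed, 0 higher and 12 lower in knockout, and 31 members had higher estimates. Prim2 turned to -0.014 with WT4 and KO4 left out and to -0.020 in the 5 shallower libraries. Chaf1a ran from -0.30 to 0.045 when 1 library was left out, turning without WT2, and was 0.15 over the 5 shallower and 0.11 over the 5 Xist-positive libraries. The cause was not tested. Same-numbered libraries did not all deviate together (correlations of 0.36, 0.31, -0.03 and 0.12 for numbers 1 to 4 over all genes), so the numbers were not taken as pairs. With the replicate block 0 genes passed, 33 members had higher estimates and the median was 0.07. WT1 with KO1 and WT2 with KO2 correlated best with their own number, and the other libraries did not. WT3 and KO4 (0.16) and WT4 and KO3 (0.20) were each other's best match. A block that joins libraries of different numbers was not tested.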
